A study of Homo sapiens with 6 samples.

Results

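The Sprouty, SPRED and dual-specificity phosphatase genes described here are negative feedback regulators of the ERK pathway: SPRY1, SPRY2, SPRY3, SPRY4, SPRED1, SPRED2, SPRED3, DUSP4, DUSP5 and DUSP6. Array probes were assigned to them when the transcript accession that the scanner file gives for the probe belongs to the gene, and every probe was kept separately. This gave 11 of the 50599 gene probes on the array. They covered 9 of the 10 genes, since no probe carries an accession of SPRED3. Of the 11 probes, 10 entered the test, which was run on the 32647 probes whose signal stood well above background in 3 or more of the 6 arrays.

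RNA came from A673, a human Ewing sarcoma cell line, that expressed the tetracycline repressor (TR). Control cells were A673/TR/empty (3 arrays), carrying the vector with no insert, and the other cells were A673/TR/LOX-PP (3 arrays), carrying a doxycycline-inducible cDNA of the lysyl oxidase propeptide, LOX-PP, the part of the LOX proenzyme that is cleaved off. The labels describe A673/TR/LOX-PP as stimulated with doxycycline for 72 hours, and their treatment protocol, identical for all 6 samples, gives 1 uM, so whether the control cells also received doxycycline is not settled. The lentivirally infected lines were selected separately, so that construct, selected population and any drug effect cannot be told apart, and each of the 3 arrays of a group is an independent experiment.

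Growth factor receptors activate RAS, which drives the RAF, MEK and ERK kinases in turn, and active ERK switches on transcription of its own inhibitors. Sprouty proteins block signalling between the receptor and RAF, and SPRED proteins bring neurofibromin, the product of NF1, to the membrane, where it returns RAS to its inactive state. DUSP4, DUSP5 and DUSP6 remove the phosphates that activate MAP kinases. DUSP4 and DUSP5 do so in the nucleus and DUSP6 in the cytoplasm. Transcript levels of these genes are widely read as a record of ERK output, and FGF receptor signalling is a known inducer of the Sprouty genes.

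The promoters of 8 of the 10 genes were matched in a RefSeq promoter table (GRCh38.p14). The windows of SPRY1 are shown because it was the gene that passed the test, and that of DUSP6 as a feedback gene that did not. Each window holds the 250 bases before an annotated transcript start, 5′ to 3′ on the strand of the gene, and the array data do not tell which SPRY1 start was used. Capitals mark the letters GGAAG, a core of the sites of ETS factors, searched on both strands.
SPRY1, chr4:123396545-123396794, plus strand: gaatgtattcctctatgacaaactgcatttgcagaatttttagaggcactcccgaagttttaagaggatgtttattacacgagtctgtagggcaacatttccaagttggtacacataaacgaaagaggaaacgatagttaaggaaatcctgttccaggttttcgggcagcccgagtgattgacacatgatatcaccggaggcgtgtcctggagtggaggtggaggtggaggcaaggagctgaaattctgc
SPRY1, chr4:123398136-123398385, plus strand: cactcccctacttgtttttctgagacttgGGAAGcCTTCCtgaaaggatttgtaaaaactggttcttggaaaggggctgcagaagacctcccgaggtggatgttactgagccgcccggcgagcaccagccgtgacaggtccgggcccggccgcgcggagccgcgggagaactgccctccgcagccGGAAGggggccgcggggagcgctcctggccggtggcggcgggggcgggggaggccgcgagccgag
DUSP6, chr12:89352502-89352751, minus strand: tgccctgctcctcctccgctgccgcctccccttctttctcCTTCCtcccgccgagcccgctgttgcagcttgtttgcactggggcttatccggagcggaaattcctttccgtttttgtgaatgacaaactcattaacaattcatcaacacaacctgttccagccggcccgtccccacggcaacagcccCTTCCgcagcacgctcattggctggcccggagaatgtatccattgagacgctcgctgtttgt
The letters occurred 0 times in the first SPRY1 window, 3 times in the second and 2 times in that of DUSP6, and 65.1% of all 35116 windows of that length held at least 1 match. The AP-1 letters TGANTCA (6.57% of all windows), the CRE half-site TGACG (21.2%) and the EGR letters GCGTGGGCG (0.72%), each searched on both strands, were found in none of these 3 windows. No searched motif contains another. A match is a description of the letters in the window.

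SPRY1 was lower in the arrays labelled LOX-PP and was the only 1 of the 10 tested probes to pass the threshold, an adjusted p under 0.05 in limma with Benjamini-Hochberg adjustment over all 32647 probes. Among all tested probes, 5.66% passed in either direction, 3.31% as higher and 2.36% as lower. The other 9 probes did not pass. Of the 10 probes, 7 lay below the median change of all tested probes and 3 above it. The median of the 10 probes was -0.47 on the log2 scale relative to that of all tested probes. Control and LOX-PP values did not overlap for 4 of the 10 probes (3 lower and 1 higher), while 29.5% of all tested probes did not overlap, 13.4% being lower and 16.1% higher. An unadjusted p under 0.05 was reached by 4 of the 10 probes and by 21.3% of all tested probes. Requiring a signal well above background on all 6 arrays, which tests fewer probes, raised the number of passing probes from 1 to 3, adding DUSP5 and SPRY3, and applying no filter lowered it to 0. Over all probes tested in each setting, 1729 passed with that stricter filter and 516 with no filter, against 1849 as reported. The share of all probes that the 1729 make up is not given here.

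Signals are given as log2 of the processed spot signal minus the 75th percentile of the same array. A value of 0 is therefore a signal at that percentile, and changes are read between arrays for 1 probe. Levels of different probes were set side by side to rank the probes of a gene by brightness. They were added up for the marker lists. The median of all tested probes was 0.13 higher in LOX-PP, so each change below is given relative to that median, beside the difference of the group means with its 95% interval. Each probe of these genes is a single spot on each array.

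**Figure D1:**
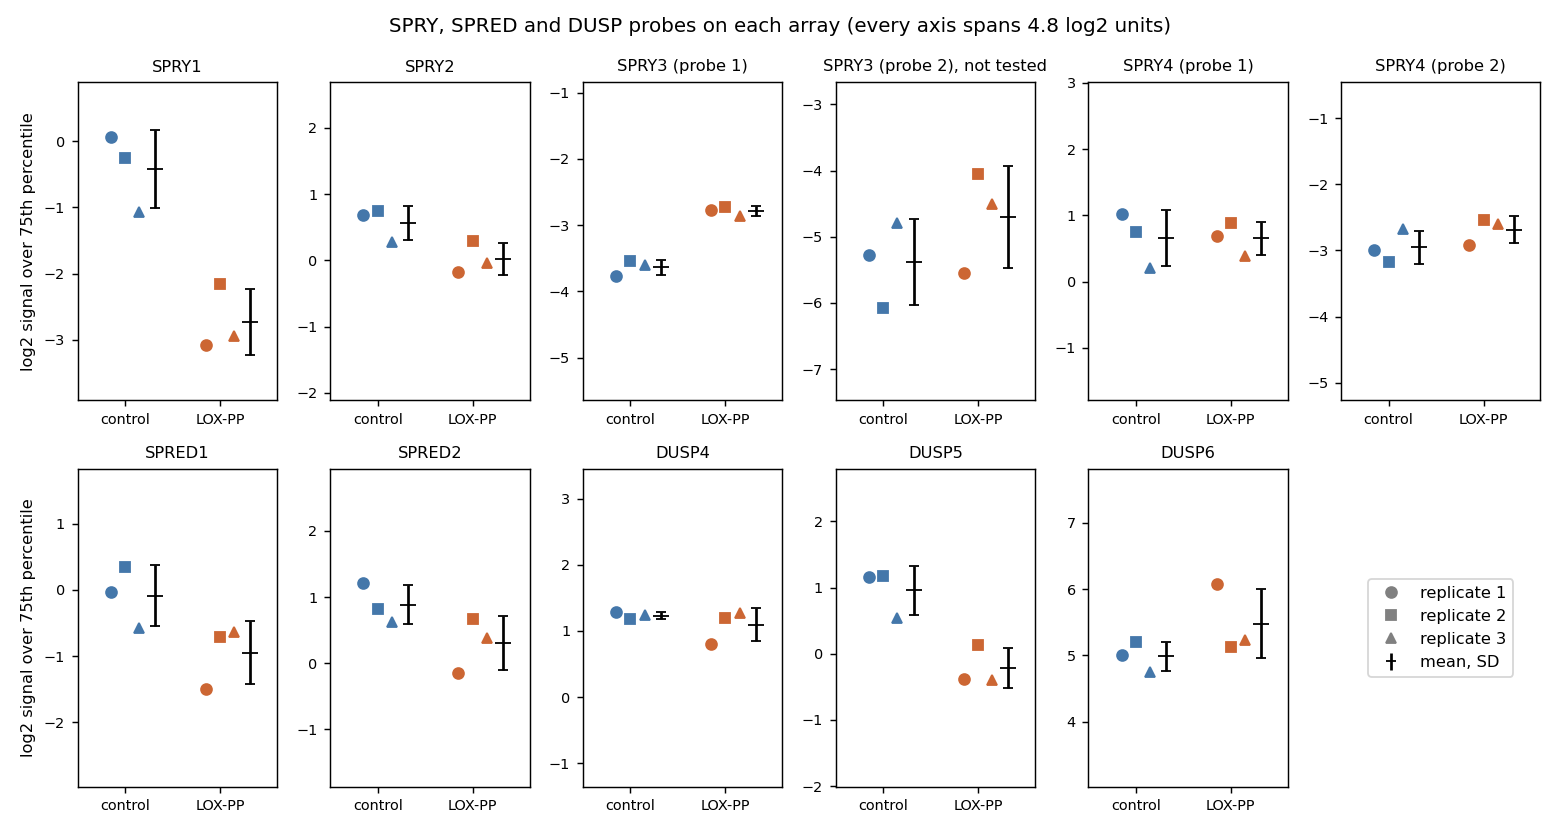
Signal of each probe of the feedback genes on the 6 arrays, as log2 over the 75th percentile of the array, with control arrays in blue, LOX-PP arrays in orange, a symbol for each replicate and bars for the mean and SD. SPRY1, SPRED1 and DUSP5 lie lower without overlap in LOX-PP, and the first SPRY3 probe lies higher.

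SPRY1, the Sprouty gene on chromosome 4 (probe A_23_P144476, NM_199327), fell in the arrays labelled LOX-PP. Its signal was 0.06, -0.25 and -1.08 in control replicates 1, 2 and 3 and -3.09, -2.16 and -2.94 in LOX-PP replicates 1, 2 and 3. All 3 LOX-PP arrays lay below all 3 control arrays, and 1.09 separated the nearest values of the groups. The means were -0.42 ± 0.59 in control and -2.73 ± 0.50 in LOX-PP (SD, n = 3 each), a difference of -2.31 (95% interval -3.22 to -1.39), or 4.95-fold lower (interval 2.62 to 9.35). Relative to the median of all probes the change was -2.44, with an adjusted p of 0.0211 in limma. In bulk RNA, fewer cells expressing a gene and less of its RNA per cell cannot be told apart.

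The SPRY1 probe was well above background on all 6 arrays, and 0.628% of the tested probes had a lower change. Over 16 alternative settings the relative change ran from -2.83 to -2.15 and passed the threshold in 10, with adjusted p between 0.0109 and 0.109. Treating the slide as a block and leaving out LOX-PP replicate 1 were the same fit, and both are among the 10. Leaving out control replicate 1 gave -2.18 with an adjusted p of 0.107 in limma, leaving out control replicate 2 gave -2.29 with 0.109, and leaving out LOX-PP replicate 3 gave -2.33 with 0.0676. On the 5 arrays of the slide that held both groups, that is without LOX-PP replicate 1, the change was -2.29 with an adjusted p of 0.0444.

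The genes around SPRY1 were less shifted than SPRY1 itself. The 577 genes tested on chromosome 4 had a median relative change of -0.28, and 1.21% of them were lower than SPRY1. The 10 tested genes nearest to it, 5 on either side, had a median of -0.45 and a range of -1.02 to 0.40, and 0 of them passed the threshold. The nearest were AFG2A at -0.88 and LINC01091 at 0.40.

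The genes whose signal followed that of SPRY1 most closely over the 6 arrays, among 16569 named genes compared, were SEZ6 (Pearson r = 0.998), PITPNC1 (r = 0.997) and SOCS1 (r = 0.997). These are descriptions over 6 points that fall into 2 groups of 3, and they carry no p. SOCS1, an inhibitor of cytokine receptor signalling, had a relative change of -1.15, PITPNC1 one of -2.04 and SEZ6 one of -1.41. The genes were chosen for following SPRY1, whose values separated the groups, so their own group differences came with the choice. No p is given for them. In LOX-PP the means of SEZ6 (-4.07) and PITPNC1 (-3.78) lay below -3.70, the lowest level measurable on every array. The sizes of these 2 changes are therefore not well measured.

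SPRY2, an inhibitor of growth factor signalling that binds the ubiquitin ligase CBL, did not pass the test. Its signal on chromosome 13 (NM_005842) was 0.68, 0.75 and 0.27 in the control replicates and -0.17, 0.29 and -0.04 in the LOX-PP replicates. LOX-PP replicate 2 lay just above control replicate 3, so the groups overlapped. The difference was -0.54 (interval -1.12 to 0.04), the relative change -0.67 and the adjusted p 0.259 in limma. The 285 tested genes of chromosome 13 had a median relative change of -0.82, lower than that of SPRY2, and 58.9% of them were lower than SPRY2. The part of the chromosome-wide shift in the SPRY2 value was not tested.

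SPRY3, a Sprouty gene with promoter entries on the X and Y chromosomes, is placed on X here. It had 2 probes for the same transcript (NM_005840), and the brighter of them was higher in LOX-PP without passing. The brighter probe read -3.76, -3.55 and -3.60 in the control replicates and -2.77, -2.72 and -2.87 in the LOX-PP replicates. The groups were tight and separated by 0.68, with a difference of 0.85 (interval 0.38 to 1.32), or 1.81-fold (1.30 to 2.50), and an adjusted p of 0.0569 in limma. The relative change was 0.73. It passed in 3 of the 16 alternatives. Its control values lay near the lowest level measurable on every array, -3.70, and quantile normalization gave a relative change of 0.55 with an adjusted p of 0.256. The 7 nearest tested genes on the X chromosome had a median relative change of 0.49.

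The other SPRY3 probe, A_24_P204819, was well above background on 1 control and 1 LOX-PP array and was not tested. Its values were -5.28, -6.08 and -4.79 in control and -5.55, -4.05 and -4.50 in LOX-PP, which overlap. The 2 SPRY3 probes therefore did not both give a measurable level.

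SPRY4, a Sprouty gene on chromosome 5 (NM_030964), gave no difference beyond the spread of its 2 probes. For SPRY4 the brighter probe read 1.02, 0.75 and 0.20 in control and 0.69, 0.89 and 0.38 in LOX-PP, fully overlapping, with a relative change of -0.13 and a difference of -0.01 (interval -0.68 to 0.67; adjusted p 0.993, limma). The dimmer probe read -2.996, -3.18 and -2.68 in control and -2.91, -2.54 and -2.60 in LOX-PP. Its relative change was 0.14 and its difference 0.27 (interval -0.29 to 0.82; adjusted p 0.565). The intervals leave room for a change of either sign for both probes. Each probe changed sign relative to the median of all probes under quantile normalization.

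SPRED1, a negative regulator of RAS that works with neurofibromin, was lower in LOX-PP but did not pass. Its signal on chromosome 15 (NM_152594) was -0.03, 0.34 and -0.57 in control and -1.49, -0.72 and -0.63 in LOX-PP. The groups did not overlap, but only 0.06 separated control replicate 3 from LOX-PP replicate 3. The means were -0.08 ± 0.46 and -0.95 ± 0.47 (SD, n = 3 each), with a difference of -0.86 (interval -1.68 to -0.04). The relative change was -0.99 and the adjusted p 0.213 in limma. The 552 tested genes of chromosome 15 had a median of -0.12, and 5.25% of them were lower than SPRED1.

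SPRED2, its close relative on chromosome 2 (NM_181784), had a difference of the same sign with overlapping groups. The control replicates read 1.21, 0.83 and 0.63 and the LOX-PP replicates -0.14, 0.67 and 0.37. LOX-PP replicate 2 lay above control replicate 3, and LOX-PP replicate 1, the array on the other slide, was the lowest. The difference was -0.59 (interval -1.27 to 0.10), the relative change -0.71 and the adjusted p 0.298 in limma.

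DUSP5, the nuclear ERK phosphatase on chromosome 10 (NM_004419), was lower on every LOX-PP array without passing the threshold. Its signal was 1.15, 1.18 and 0.54 in the control replicates and -0.38, 0.13 and -0.40 in the LOX-PP replicates. A gap of 0.40 separated control replicate 3 from LOX-PP replicate 2. The difference was -1.17 (interval -1.84 to -0.51), or 2.25-fold lower (1.42 to 3.57), with a relative change of -1.30 and an adjusted p of 0.0623 in limma. Over the 16 alternatives the adjusted p ran from 0.0398 to 0.269, and DUSP5 passed in 1 of them. The 627 tested genes of chromosome 10 had a median relative change of -0.20, and 4.63% were lower than DUSP5.

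The DUSP5 pseudogene DUSP5P1, on chromosome 1, moved the other way. It read -3.45, -3.48 and -3.51 in control and -0.75, -1.82 and -1.26 in LOX-PP, a difference of 2.20 with an adjusted p of 0.0110 in limma. The adjusted p of DUSP5P1 was 0.0702 without control replicate 1, 0.0653 without control replicate 2, 0.0667 in the methods' t-test and 0.0512 when dim probes were kept. Whether either probe also detects the transcript of the other gene was not tested, because the probe sequences were not used here.

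DUSP4, a nuclear phosphatase of ERK and other MAP kinases on chromosome 8 (NM_001394), did not pass. It read 1.28, 1.18 and 1.24 in control and 0.81, 1.20 and 1.27 in LOX-PP, so LOX-PP replicate 1 stood below the other 5 arrays. The difference was -0.14 (interval -0.66 to 0.38), the relative change -0.27 and the adjusted p 0.760 in limma. The 559 tested genes of chromosome 8 had a median relative change of -0.42.

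DUSP6, the cytoplasmic ERK phosphatase on chromosome 12 (NM_001946), was not lower in LOX-PP. It read 5.005, 5.19 and 4.76 in control and 6.07, 5.12 and 5.24 in LOX-PP. The highest value was LOX-PP replicate 1, and LOX-PP replicate 2 lay below control replicate 2. The difference was 0.49 (interval -0.24 to 1.23), the relative change 0.37 and the adjusted p 0.411 in limma. Without LOX-PP replicate 1 the relative change was 0.03. For both DUSP4 and DUSP6 it was LOX-PP replicate 1 that stood apart, and it was hybridised on a slide of its own, whose part in these values was not tested.

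**Figure D2:**
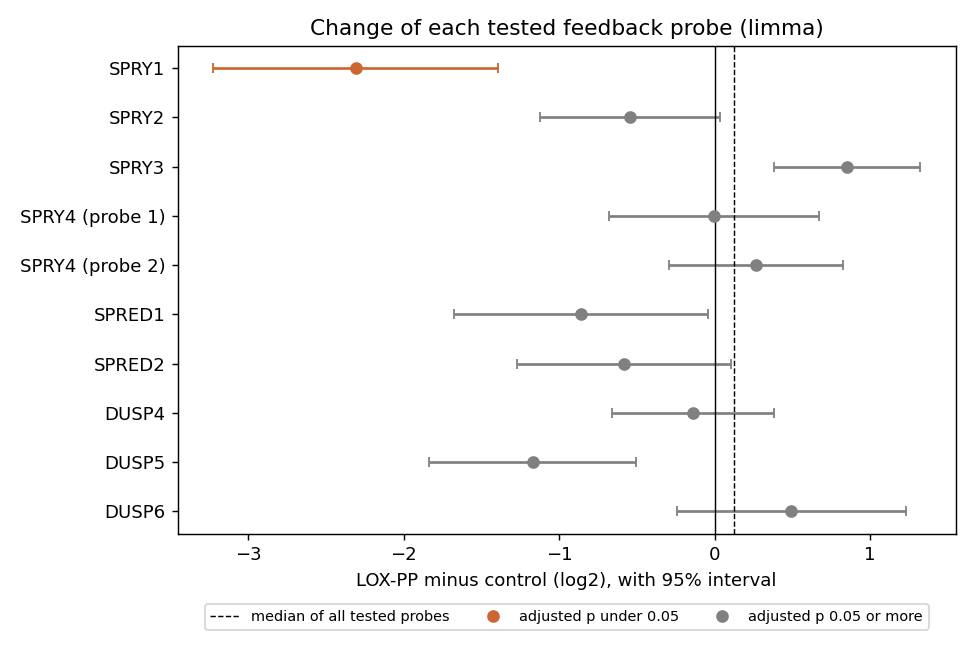
LOX-PP minus control difference of each tested probe on the log2 scale, with its 95% interval from limma; the dashed line is the median of all tested probes, 0.13. SPRY1, at -2.31, is the probe with an adjusted p under 0.05.

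**Figure D3:**
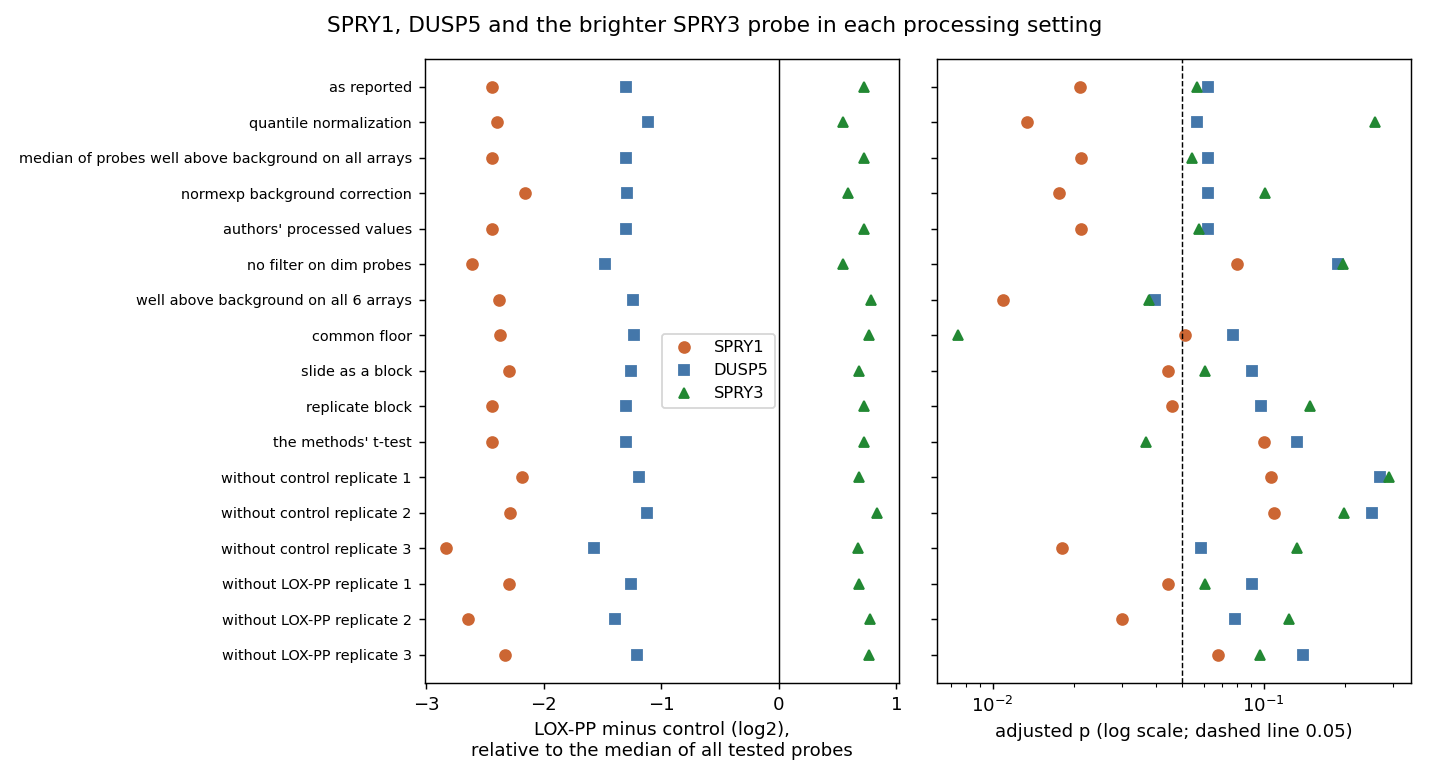
Relative change (left) and adjusted p on a log axis (right) of SPRY1, DUSP5 and the brighter SPRY3 probe as reported and under the 16 alternatives. The direction of each held throughout, and SPRY1 passed the threshold in 10 alternatives, SPRY3 in 3 and DUSP5 in 1. The slide block and leaving out LOX-PP replicate 1 are the same fit and are counted separately.

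The rest of the pathway was read through lists of genes, with the brightest probe taken for each gene. Over all 16598 named genes tested, 7.07% passed, 3.71% higher and 3.37% lower, and the median relative change was -0.09. The 9 feedback genes read the same way had a median of -0.67, with 7 below the median of all tested probes and 2 above it.

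Of 12 receptors, 11 were tested and 1, MET, the hepatocyte growth factor receptor, fell. Their median relative change was -0.07, with 5 above and 6 below the median of all tested probes. MET read 1.56, 1.93 and 1.79 in control and 0.03, -0.14 and -0.64 in LOX-PP, far apart, with a difference of -2.02 and an adjusted p of 0.00797 in limma. Without control replicate 2 the relative change of MET was -1.99 with an adjusted p of 0.0563. FGFR1, an FGF receptor, had a relative change of -0.20 (adjusted p 0.926). FGFR2 had a relative change of 1.25 with an adjusted p of 0.0527 in limma, and was well above background on 2 of the 3 control arrays. Its control values, -3.87, -4.16 and -4.02, lay below -3.70, the lowest level measurable on every array. With values raised to that floor the relative change of FGFR2 was 1.00 with an adjusted p of 0.128. Its adjusted p was 0.0189 without LOX-PP replicate 1, and 0.105 to 0.213 on leaving out any other single array. IGF1R, the IGF receptor, had a relative change of -0.72 with an adjusted p of 0.204. PDGFRA was not tested.

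Of the 20 genes of the signalling core from GRB2 and RAS to ERK and its kinase targets, 0 passed, 4 lay above the median of all tested probes and 16 below it. Their median relative change was -0.28. By moderated t, the foremost were RPS6KA3, an ERK-activated kinase (-0.94, adjusted p 0.100), and HRAS (-0.75, adjusted p 0.131), both in limma. KSR1, a scaffold of the RAF, MEK and ERK kinases, came next (0.71, adjusted p 0.173, limma). The other tested RPS6KA3 probe, for the same transcript, had a relative change of -0.35 (adjusted p 0.701, limma) and overlapping groups.

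Among the other 14 inhibitors of RAS and of receptors, 2 fell and 0 rose, with a median relative change of -0.43. IL17RD, also called SEF, an inhibitor of FGF receptor signalling, read -2.09, -1.79 and -2.89 in control and -5.22, -4.92 and -3.79 in LOX-PP, where it was well above background on 2 of 3 arrays. All 3 LOX-PP values lay below -3.70, the common floor, so the size of its difference of -2.38 (adjusted p 0.0317, limma) is not well measured. It was -1.44 with the floor applied, where the adjusted p was 0.0745, and -1.54 with normexp. Without control replicate 1 or 2 or LOX-PP replicate 1 or 2 the adjusted p of IL17RD was 0.150, 0.144, 0.0586 and 0.0921. RASA3, which stimulates the GTPase activity of RAS, read 2.92, 3.08 and 2.61 in control and 1.43, 1.76 and 1.65 in LOX-PP, a difference of -1.26 (adjusted p 0.0271), and without control replicate 1 or 2 or LOX-PP replicate 2 or 3 the adjusted p was 0.157, 0.140, 0.0622 and 0.0670. RASA3 lies on chromosome 13, whose tested genes had a median relative change of -0.82, and the part of that shift in its value was not tested. CBL, the ubiquitin ligase that Sprouty proteins bind, had a relative change of -0.85 (adjusted p 0.104). NF1, which SPRED proteins recruit, had one of -0.21 for its brightest probe (adjusted p 0.910).

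DUSP1 rose among the 6 tested of 7 other MAP kinase phosphatases, whose median relative change was 0.56. DUSP1, a nuclear phosphatase of JNK, p38 and ERK, read -0.01, 0.23 and 0.01 in control and 1.21, 1.82 and 1.39 in LOX-PP. The groups were well apart, with a difference of 1.40 and an adjusted p of 0.0229 in limma. The adjusted p was 0.142, 0.0953 and 0.0671 without control replicate 1, 2 or 3, and 0.0605 and 0.0584 without LOX-PP replicate 2 or 3. DUSP7 and DUSP9, both cytoplasmic ERK phosphatases, had relative changes of 0.52 (adjusted p 0.142) and 0.60 (adjusted p 0.165), and 5 of the 6 genes lay above the median of all tested probes. DUSP10 was not tested.

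Of 18 further transcripts known to respond to ERK, 17 were tested and 0 passed. With 10 above and 7 below the median of all tested probes, their median relative change was 0.22. The immediate early transcription factors EGR1 (0.60, adjusted p 0.235) and FOS (0.62, adjusted p 0.238) and the ephrin receptor EPHA4 (1.03, adjusted p 0.172) had positive relative changes in limma. The ETS factors ETV4 (-1.07, adjusted p 0.258) and ETV5 (0.34, adjusted p 0.273) differed in sign. The remaining named genes were PHLDA1 at -0.64 (adjusted p 0.252) and the cyclin CCND1 at 0.54 (adjusted p 0.406). None of the 8 tested binding partners of Sprouty and SPRED proteins passed (0 of 8), with a median of -0.19. CAV1, the caveolin that binds Sprouty proteins, had a relative change of 0.10 (adjusted p 0.621), and TESK1, a kinase bound by Sprouty proteins, one of 0.04 (adjusted p 0.677).

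**Figure D4:**
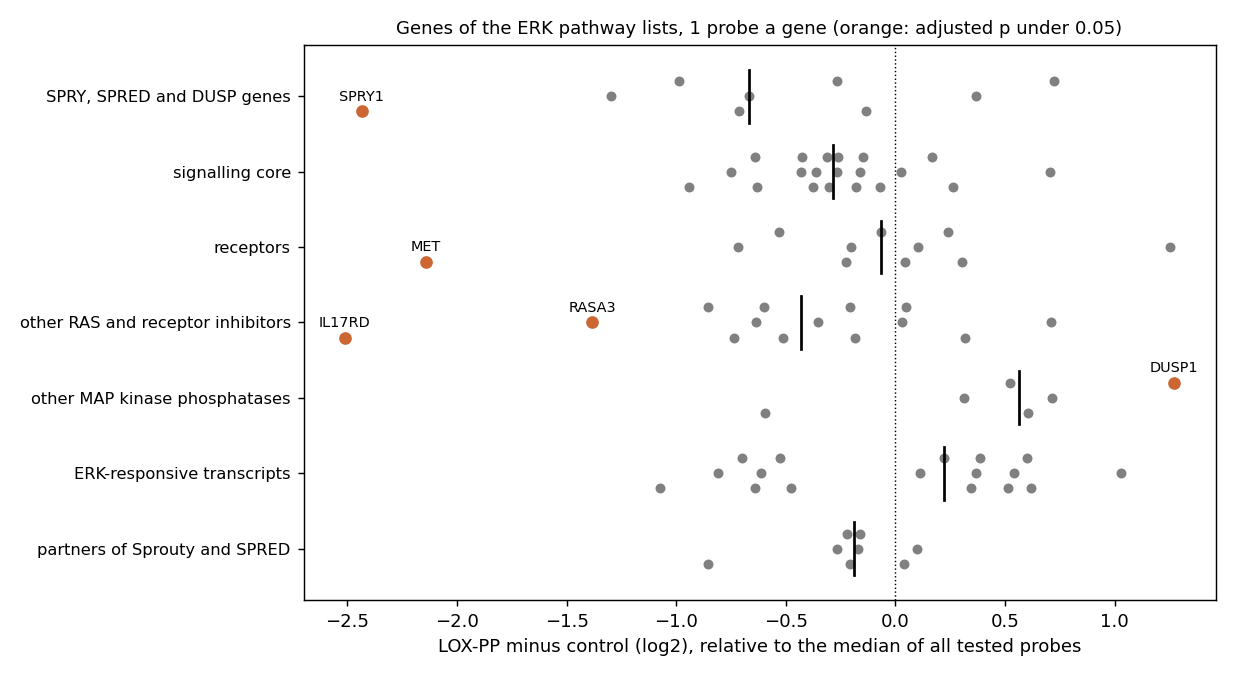
Relative change of each tested gene of the feedback genes and of the pathway lists, by its brightest probe, on the log2 scale. Black bars are list medians and the dotted line is the median of all tested probes; the genes in orange passed the threshold and are SPRY1, MET, IL17RD, RASA3 and DUSP1.

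The arrays had 58717 gene spots each with 0 saturated, and 56.9% to 74.8% of the spots were well above background. LOX-PP replicate 1 was on a slide of its own and was scanned separately from the other 5 arrays. The LOX probe read lower, not higher, on the arrays labelled LOX-PP (-0.09, 0.36 and 0.11 in control, -0.12, -0.68 and -1.29 in LOX-PP), without passing. The groups did not overlap, but only 0.03 separated them. Its difference was -0.82 (interval -1.61 to -0.04), its relative change -0.95 and its adjusted p 0.217 in limma. The sources used here do not say whether the LOX probe lies within the propeptide cDNA, so every direction rests on the labels. All 9 Ewing sarcoma markers were well above background on all 6 arrays, with a summed linear signal of 178 to 202 in control and 203 to 239 in LOX-PP, in units of the 75th percentile, while CCK, 1 of the 9, fell (relative change -2.67, adjusted p 0.0100, limma). The adjusted p of CCK was 0.0544 without control replicate 1, 0.0569 without control replicate 2 and 0.0708 in the methods' t-test. Fibroblast markers (6 genes) summed to 78.7 to 79.5 in control and 43.0 to 66.5 in LOX-PP, and COL1A2 fell (relative change -3.04, adjusted p 0.00121). LUM had a relative change of -2.42 (adjusted p 0.0191) but was well above background on 2 control arrays and 1 LOX-PP array, and with the common floor it was -0.58 (adjusted p 0.364). The call for LUM was also lost on leaving out control replicate 1 (adjusted p 0.0885), control replicate 2 (0.101), LOX-PP replicate 2 (0.0628) or LOX-PP replicate 3 (0.0521). Epithelial markers (4 genes, of which CDH1 and KRT5 were above background nowhere) summed to 0.193 to 0.224 and 3.96 to 5.13, and the brightest KRT14 probe rose (relative change 5.13, adjusted p 0.000142, limma). EPCAM, the other epithelial marker tested, did not pass. Leukocyte markers (4 genes) summed to 0.537 to 0.702 and 0.536 to 1.10, and endothelial markers (3 genes) to 0.219 to 0.289 and 0.299 to 0.514. These shifts run along with the groups, and their part in the SPRY1 value was not tested.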

How the data were processed

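RNA from A673/TR/empty and A673/TR/LOX-PP cells (3 arrays each) had been hybridised to 1-colour Agilent 60K gene expression arrays, and per the labels the authors extracted the spots with Feature Extraction 10.7. The deposited scanner files give linear intensity per spot, already background-corrected by that software, and quality flags. A deposited value table holds log2 values scaled by the authors to the 75th percentile, which served as an alternative; 50537 of 50599 probes lay within 0.02 of the values used here. Control spots and spots flagged as outliers were dropped, log2 of the processed intensity was reduced by the 75th percentile of each array, and spots of a probe were averaged. Probes well above background on at least 3 arrays were tested with limma 3.58.1 in R 4.3.3 (lmFit and eBayes, all 6 arrays, no covariates, two-sided), with Benjamini-Hochberg adjustment over all tested probes and a threshold of 0.05. Intervals are at 95%. The fit was tested on simulated data. The number of arrays, 6, limits the precision.

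Accessions were named through a RefSeq gene table, which named 28170 probes. Named genes were all feedback genes, the genes of each pathway list whose brightest probe passed or, where fewer than 3 passed, the 3 with the largest absolute moderated t, CCND1, ETV4, ETV5, PHLDA1, FGFR1, NF1 and DUSP1, LOX, and the 3 genes most like SPRY1; AFG2A, LINC01091, DUSP5P1 and the marker and chromosome values were added as context. The genes and lists were chosen with earlier results of these data known. Alternatives were quantile scaling, scaling on detected probes, normexp (offset 50), the authors' values, no and stricter filters, a common floor, the slide and replicate number as blocks, the methods' t-test, and leaving out each array.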

Additional observations from a re-analysis of the deposited data

How the results depend on the processing

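Relative changes and counts of passing probes or genes were recomputed under 16 alternatives. SPRY1 stayed lower throughout and missed the threshold without the filter on dim probes (-2.61, adjusted p 0.0799), with a common floor (-2.37, adjusted p 0.0515) and in the methods' t-test after Benjamini-Hochberg adjustment (-2.44). SPRY3 passed with the stricter filter (0.78), the floor (0.77) and the t-test (0.73), and DUSP5 with the stricter filter (-1.24). Under quantile normalization the brighter SPRY4 probe changed to 0.084 and the dimmer to -0.012, and without the filter the dimmer to -0.037. The passing feedback probes numbered 0 without the filter and 3 with the stricter one. Passing probes in all, 1849 as reported, numbered 516 without the filter, 1729 with the stricter one and 566 in the t-test. Leaving out 1 array gave -2.83 to -2.18 for SPRY1, -0.43 to 0.060 for the brighter SPRY4 probe, 0 to 1 feedback probes (0 without control replicate 1, control replicate 2 or LOX-PP replicate 3), 407 to 2062 probes in all (407 and 444 without control replicates 1 and 2, 892 and 1037 without LOX-PP replicates 2 and 3), 0 to 2 receptors, 0 to 2 inhibitors of RAS and receptors and 0 to 1 other phosphatases. Receptors passing numbered 2 with the slide as a block, which here equals leaving out LOX-PP replicate 1, and 0 in the t-test. The inhibitors numbered 0 without the filter and in the t-test, and 1 with the stricter filter and with the slide block. Other phosphatases numbered 0 without the filter and in the t-test. With the floor, 1 gene of the signalling core (HRAS) and 1 partner (CBL) passed, and the inhibitors stayed at 2 because IL17RD no longer passed and CBL did.

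Replicate numbers are shared by the groups, and the deviations of same-numbered arrays correlated at 0.27, -0.39 and 0.23. These values cannot decide whether the numbers pair the samples, because deviations from a mean of 3 arrays are tied to each other. With the replicate block, 860 probes passed in all, SPRY1 kept a change of -2.44 with an adjusted p of 0.0458, and 0 inhibitors and 0 other phosphatases passed. No other call of the feedback probes changed under the block. With 3 arrays a group, and control signals of SPRY3 near the floor, small changes of dim probes were not measurable.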

Other observations

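Genes with several probes did not always read alike. DAB2IP, a RAS GTPase-activating protein, had a relative change of 0.05 with an adjusted p of 0.680 in limma for its brightest probe, and a change of 1.12 with an adjusted p of 0.0281 for a dimmer probe. It was chosen here after its values were seen. NF1, which encodes neurofibromin, had 5 tested probes, of which the brightest changed by -0.21 and the other 4 by 0.47 to 0.80 relative to the median of all tested probes, with adjusted p from 0.121 to 0.910 in limma. None of the 5 passed the threshold.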
